A study of Mus musculus with 20 samples.

Results

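The 8 genes described here carry out the last steps of carbohydrate digestion and the first steps of sugar uptake in the small intestine. Sis, Mgam, Treh and Lct encode disaccharidases, Slc5a1, Slc2a5 and Slc2a2 encode sugar transporters, and Khk encodes the enzyme that phosphorylates fructose. They were chosen by symbol and are 8 of the 55487 mouse gene IDs in the deposited table, and all 8 were among the 17464 genes that passed the filter on low counts. PolyA RNA of small intestine tissue was sequenced in bulk from mouse pups, with 5 libraries in each of 4 groups. These were 2-week-old pups whose dams were controls, 2-week-old pups whose dams had periodontitis, and the same 2 kinds of pup at 7 weeks. The aim of the series was to compare intestinal gene expression between the 2 kinds of pup. Periodontitis was a condition of the dams and not of the pups. How it was brought about, and the strain, sex, litter and intestinal segment of each pup, are not given in the sources used here. Because litters are unknown, every p-value below measures only the spread between these libraries.

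Disaccharidases sit in the brush border of the enterocyte, the absorptive cell of the villus. Sucrase-isomaltase (Sis) and maltase-glucoamylase (Mgam) finish the digestion of starch and sucrose, trehalase (Treh) splits trehalose, and lactase (Lct) splits the sugar of milk. Glucose and galactose then enter the cell through the sodium-coupled transporter SGLT1 (Slc5a1), fructose enters through GLUT5 (Slc2a5), and GLUT2 (Slc2a2) passes sugars on to the blood. Ketohexokinase (Khk) traps fructose inside the cell. Rodent pups change from milk to solid food at weaning, which falls between both ages sampled, and sucrase-isomaltase, trehalase and GLUT5 are known as genes of the weaned intestine, whereas lactase is known as the disaccharidase of suckling.

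In GRCm38 coordinates with GENCODE M21 annotation, all 8 are protein-coding. Sis (ENSMUSG00000027790) spans chr3:72888557-72967863 on the minus strand, and Slc2a2 (ENSMUSG00000027690) lies on the same chromosome at chr3:28697903-28731359. Mgam (ENSMUSG00000068587) spans chr6:40628831-40769123, Treh (ENSMUSG00000032098) chr9:44673233-44686305, and Lct (ENSMUSG00000026354) chr1:128284756-128328318 on the minus strand. Slc5a1 (ENSMUSG00000011034) at chr5:33104219-33162870 and Khk (ENSMUSG00000029162) at chr5:30921431-30931248 share a chromosome, and Slc2a5 (ENSMUSG00000028976) spans chr4:150119283-150144169. All but Sis and Lct are on the plus strand.

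The 250 bases before the start site are shown for the 4 genes on which the results turn: Sis and Mgam, whose levels ranged most among 2-week libraries, Lct, which ranged little there but for 1 control library, and Slc2a5, which differed most with age in control pups. The sequences are from RefSeq on GRCm38.p6, each read 5′ to 3′ on the gene's own strand, and RefSeq's start can differ from GENCODE's. Capitals mark matches on either strand to 3 motifs of known intestinal or sugar-responsive regulators: the CDX core TTTAT, the GATA core GATAA and the E-box CACGTG.
Sis, chr3:72967864-72968113 (minus strand): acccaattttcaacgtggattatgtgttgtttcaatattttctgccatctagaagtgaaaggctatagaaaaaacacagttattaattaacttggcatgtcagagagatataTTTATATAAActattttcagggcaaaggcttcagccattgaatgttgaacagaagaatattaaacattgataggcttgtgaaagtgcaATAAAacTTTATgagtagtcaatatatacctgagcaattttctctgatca
Mgam, chr6:40628581-40628830 (plus strand): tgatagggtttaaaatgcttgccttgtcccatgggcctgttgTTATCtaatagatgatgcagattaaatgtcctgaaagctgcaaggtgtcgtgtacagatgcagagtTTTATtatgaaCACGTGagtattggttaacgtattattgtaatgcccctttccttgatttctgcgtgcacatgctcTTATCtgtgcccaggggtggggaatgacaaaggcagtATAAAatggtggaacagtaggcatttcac
Lct, chr1:128328319-128328568 (minus strand): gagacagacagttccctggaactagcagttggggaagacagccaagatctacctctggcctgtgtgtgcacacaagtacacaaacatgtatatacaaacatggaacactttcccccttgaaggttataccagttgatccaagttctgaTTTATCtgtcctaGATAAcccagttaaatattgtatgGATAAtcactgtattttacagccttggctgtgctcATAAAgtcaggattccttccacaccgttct
Slc2a5, chr4:150119094-150119343 (plus strand): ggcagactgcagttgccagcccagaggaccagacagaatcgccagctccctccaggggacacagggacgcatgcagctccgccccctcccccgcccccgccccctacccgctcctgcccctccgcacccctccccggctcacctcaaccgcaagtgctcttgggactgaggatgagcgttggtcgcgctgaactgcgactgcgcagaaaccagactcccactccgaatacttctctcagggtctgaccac

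The Sis window held 4 CDX cores, Mgam held 2 CDX cores, 2 GATA cores and 1 E-box, and Lct held 2 CDX and 3 GATA cores. No match was found in the windows of Slc2a5 and Treh. Among the members not printed, Slc5a1 held 1 E-box, Slc2a2 held 1 GATA core, and Khk held 1 E-box. The reverse of the CDX core, ATAAA, is also part of a TATA-box-like run, and 1 CDX match of Lct shares its bases with a GATA match in the run TTTATC. Of all 32817 promoter windows of this length, 37.3% held the CDX core, 22.6% the GATA core and 6.02% the E-box. GC content was 31.6% in the Sis window, 42.4% in Mgam, 42.8% in Lct and 66.4% in Slc2a5, against a median of 52.4% over all windows (5th to 95th percentile 34.8% to 73.6%). A match describes letters in these windows and does not show a bound site.

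Library totals were 14882204 to 42563229 counts. The epithelial markers Epcam and Vil1 were present in every library, at no less than 1088 and 511 CPM (read counts scaled to a common library size, here with the TMM method of edgeR), as in intestinal epithelium. Library 5 of the control pups at 2 weeks stands apart: it was the shallowest, mitochondrially encoded genes took 29.4% of its counts against 3.99% to 9.15% elsewhere, and counts were above 0 for 20080 of its genes, compared with 23350 to 23574 in libraries 1 to 4. It was kept, and the members' 2-week fold changes, levels and likeness, and their changes with age in control pups, are also given without it. Kidney markers, of interest because Treh is also a kidney gene, summed to at most 0.349 CPM in any library. The 8 genes together took 0.469% to 0.607% of a library's counts in control pups at 2 weeks, 0.229% to 0.471% in periodontitis pups at 2 weeks, 1.12% to 1.22% in control pups at 7 weeks and 0.961% to 1.23% in periodontitis pups at 7 weeks.

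At 2 weeks, means of 7 of the 8 genes were lower in pups of dams with periodontitis, most of all for Sis and Mgam, while the Lct means were close, at 978 and 1045 CPM. With libraries scaled to epithelial genes, the log2 fold change of Khk was 0.0022, on the other side of 0. The difference lay mainly in 3 of the 5 periodontitis libraries. None of the 8 passed the test over all genes, which used edgeR's quasi-likelihood test with Benjamini-Hochberg adjustment and a threshold of 0.05.

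Sis, which encodes sucrase-isomaltase, stood at 582, 604, 544, 761 and 1500.4 CPM in libraries 1 to 5 of control pups at 2 weeks. In periodontitis pups of that age it stood at 277, 462, 28.0, 9.0 and 19.2 CPM. The groups did not overlap, and periodontitis libraries 3, 4 and 5 lay far under libraries 1 and 2 of the same group. The means were 159 ± 203 against 798 ± 401 CPM (SD, n = 5 each), a log2 fold change of -2.33 ± 0.72 (SE, edgeR adjusted p = 0.142) with a 95% interval from -3.83 to -0.82. That interval is the widest among the 8 genes.

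Mgam, which encodes maltase-glucoamylase, stood at 673, 631, 735, 1026 and 2053 CPM in control pups at 2 weeks and at 588, 646, 199.9, 181 and 167 CPM in periodontitis pups. Here the groups overlapped, since periodontitis library 2 lay above control library 2. The log2 fold change was -1.52 ± 0.39 (edgeR adjusted p = 0.0852). Library 5 of the control pups was the highest of its group for both Sis and Mgam.

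Treh, which encodes trehalase, ranged from 47.7 to 192 CPM in control pups at 2 weeks and from 25.8 to 144 CPM in periodontitis pups, with a log2 fold change of -0.69 ± 0.38 (edgeR adjusted p = 0.424). Its lowest control value came from library 5, the same library that was highest for Sis. Lct, the milk-sugar enzyme, stood at 1123, 1059, 1223, 1054 and 429 CPM in control pups and at 1172, 1069, 1081, 820.4 and 1083 CPM in periodontitis pups. Apart from control library 5, all 2-week Lct values thus lay in 1 narrow band. Its log2 fold change was 0.10 ± 0.24 (edgeR adjusted p = 0.876) with a 95% interval from -0.40 to 0.59, so a change of the size seen for Sis lay outside the interval. Without control library 5 the Lct estimate turned to -0.09, and all 8 estimates were then below 0: Sis -1.97, Mgam -1.1, Treh -0.91, Slc5a1 -0.93, Slc2a2 -0.59, Slc2a5 -0.58 and Khk -0.55 (edgeR adjusted p from 0.0626 to 0.470 for these 7).

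The glucose transporter gene Slc5a1 had the smallest p of the 8. It stood at 922, 826, 893, 1047 and 1206 CPM in control pups at 2 weeks and at 646, 712, 399, 304 and 354 CPM in periodontitis pups. All periodontitis values lay under all control values. The means were 483 ± 183 against 979 ± 150.3 CPM, and the log2 fold change was -1.02 ± 0.21 (95% interval -1.46 to -0.58, edgeR adjusted p = 0.0541). Slc2a2, the basolateral transporter gene, also had no overlap, with 249.9 to 332 CPM in control pups and 128 to 246 CPM in periodontitis pups. Its log2 fold change was -0.65 ± 0.18 (edgeR adjusted p = 0.111).

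The fructose transporter gene had the lowest level per length of the 8 at this age, while Khk was in mid-order. Slc2a5 ranged from 15.9 to 48.5 CPM in control pups and from 19.4 to 43 CPM in periodontitis pups, with a log2 fold change of -0.38 ± 0.33 (edgeR adjusted p = 0.607). Khk ranged from 28.0 to 222 CPM in control pups and from 87.2 to 197 CPM in periodontitis pups, with -0.28 ± 0.35 (edgeR adjusted p = 0.741). For both genes the lowest control value was that of library 5.

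**Figure D1:**
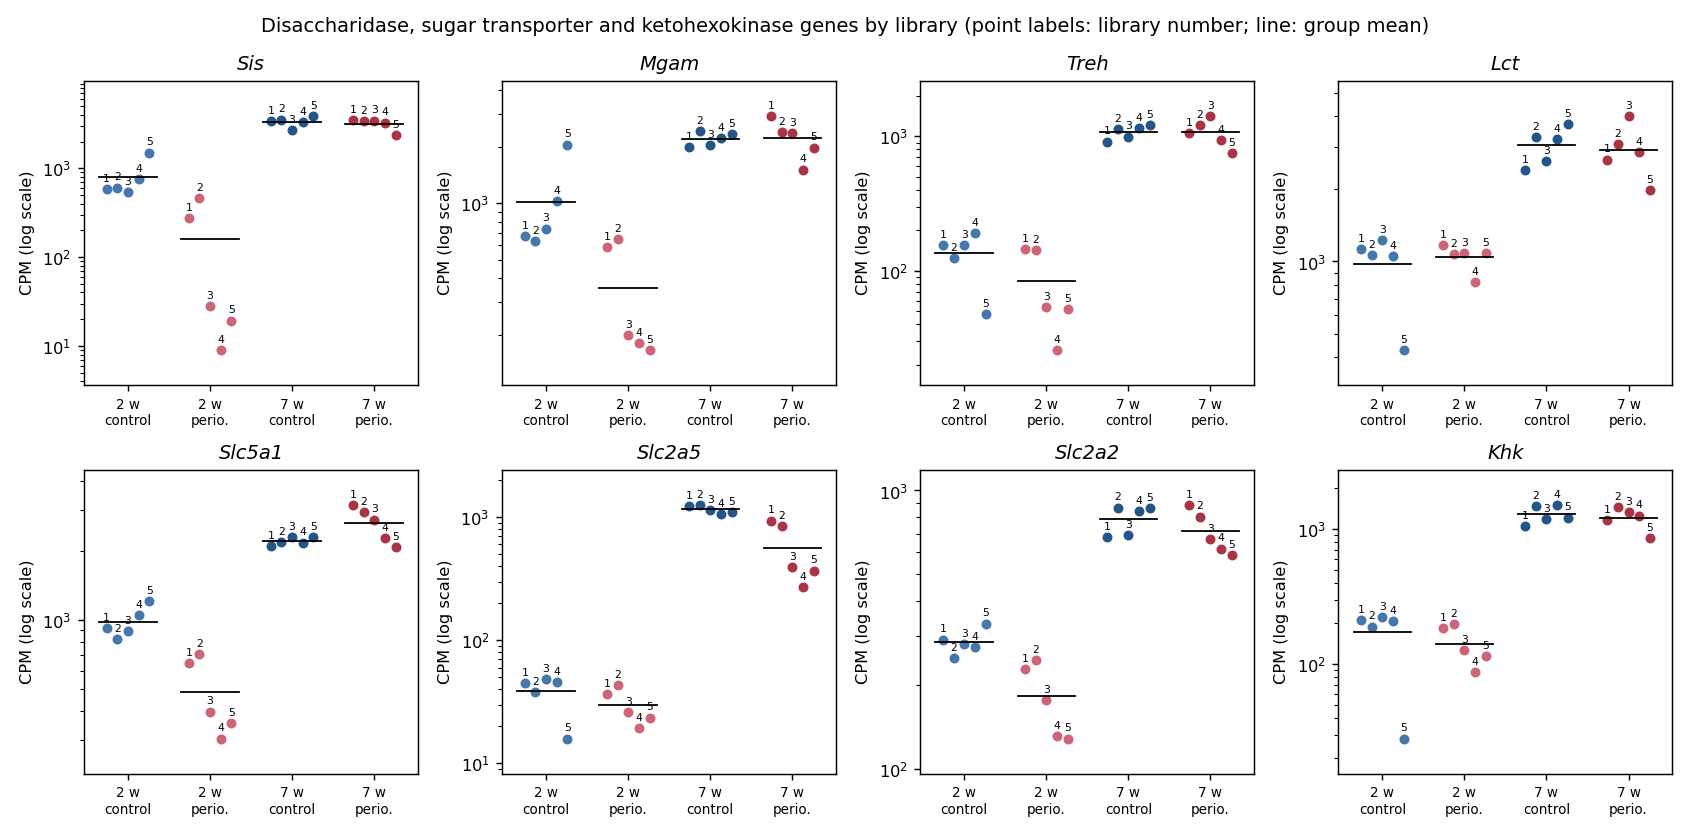
Each panel plots CPM on a log scale for 1 of the 8 genes in all 20 libraries, with points labelled by library number and a line at the group mean. At 2 weeks the periodontitis libraries 3, 4 and 5 lie at 9.0 to 28.0 CPM for Sis and at 167 to 199.9 CPM for Mgam, under all other libraries, while Lct shows no such step; Slc2a5 lies at 15.9 to 48.5 CPM at 2 weeks and at 272 to 1260 CPM at 7 weeks.

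By edgeR, 0 of 8 members were called at 2 weeks, where 0.0286% of all genes tested were. Without adjustment 4 of 8 (Sis, Mgam, Slc5a1 and Slc2a2) had a p under 0.05, against 14.4% of all genes. Sis, Slc5a1 and Slc2a2, 3 of 8, were lower without overlap, as were 3.54% of all genes. The median log2 fold change was -0.67 over the members and 0.02 over all genes tested. DESeq2 called Slc5a1, Mgam and Slc2a2 lower (adjusted p = 0.000699, 0.00594 and 0.0191; 2.11% of its genes were called lower) and gave Sis no adjusted p. With edgeR and libraries scaled to 15 epithelial genes, Slc5a1 and Mgam were called (adjusted p = 0.0304 and 0.0399; 0.332% of genes were called lower).

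The call also turned on single libraries. Leaving out periodontitis library 2 gave 4 called members: Sis at -3.26 (edgeR adjusted p = 0.0234), Mgam at -1.85 (0.0190), Slc5a1 at -1.20 (0.00859) and Slc2a2 at -0.78 (0.0294), where 1.21% of all genes were called lower. Leaving out periodontitis library 1, or library 5 of the periodontitis pups at 7 weeks, gave 1 called member, Slc5a1 (adjusted p = 0.0404 and 0.0384), with 0.225% and 0.315% of all genes called lower. Without both library 5 of the control pups at 2 weeks and library 5 of the periodontitis pups at 7 weeks, Slc5a1 alone was called (-0.94, edgeR adjusted p = 0.0287), with 0.837% of all genes called lower. This removal was chosen after seeing the data, and the 7-week library was flagged by its Sis value. Without control library 5 no member was called, and 0.0563% of all genes were called lower.

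Other gene groups stood apart in the same libraries. Genes of the suckling enterocyte, which takes up milk proteins whole and digests them in lysosomes, had a mean log2 CPM of 5.70 to 7.05 in control pups at 2 weeks (6.15 to 7.05 in libraries 1 to 4). In periodontitis libraries 1 to 5 that mean was 7.42, 7.05, 7.84, 7.89 and 7.83. So libraries 3 to 5, low in Sis, were the 3 highest of the age. By edgeR 0 of the 13 suckling enterocyte genes were called between dams at 2 weeks, and 11 had an unadjusted p under 0.05 (14.4% of all genes). DESeq2 called 8, all higher (as were 1.49% of its genes), and the list's median log2 fold change was 1.02. Ctsl, a lysosomal protease, had a log2 fold change of 1.71 ± 0.32 (edgeR adjusted p = 0.0541) and Fcgrt, the receptor that carries milk antibodies across the gut wall, 1.99 ± 0.47 (0.0645). Genes of the weaned enterocyte other than the 8 had means of 8.83 to 9.05 in control pups and of 8.85, 8.95, 8.17, 7.53 and 7.78 in periodontitis pups. Of these 8 further genes edgeR called 0 and DESeq2 called 1, which was lower (as were 2.11% of its genes). An unadjusted p under 0.05 was seen for 4 (14.4% of all genes), and 7 had estimates below 0.

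Markers of segment and of epithelium also varied among the 2-week libraries. The mean log2 CPM of 10 proximal genes was 7.89, 7.67, 7.81, 8.05 and 7.43 in control pups at 2 weeks and 7.70, 7.86, 6.70, 5.98 and 6.62 in periodontitis pups. For 10 distal genes it was 5.75, 5.72, 5.75, 6.12 and 6.20 against 6.11, 5.94, 4.99, 4.81 and 4.83. Fabp6, the ileal bile acid binding protein and a defining distal marker, lay at 197 to 510 CPM in control pups and at 365, 328, 17.5, 2.92 and 8.07 CPM in periodontitis pups. By mean log2 CPM both segment lists were thus lower in periodontitis libraries 3 to 5, which does not separate 1 end of the intestine from the other. Summed proximal genes, mostly Apoa4, went the other way. They stood at 37640, 32758 and 43227 CPM in those libraries, against 18625 to 31537 CPM in control pups. Of the 10 distal genes, 7 had estimates below 0. The 3 above 0 included Fgf15 (0.67 ± 0.24, edgeR adjusted p = 0.236) and Bex4 (1.0 ± 0.34, 0.175). The mean of 15 epithelial genes was 8.53 to 8.73 in control libraries 1 to 4, 7.77 in control library 5, and 8.57, 8.44, 8.16, 7.97 and 8.12 in periodontitis pups. Epithelial markers in periodontitis libraries 3 to 5 thus lay under control libraries 1 to 4. Markers of other tissue varied as well, with fibroblast means of periodontitis libraries 3 to 5 and smooth muscle means of libraries 4 and 5 above control libraries 1 to 4. The mean of 6 smooth muscle genes was 7.94 to 8.37 in control libraries 1 to 4, 7.68 in control library 5, and 7.24, 8.17, 8.32, 8.95 and 8.71 in periodontitis pups. For 6 fibroblast genes it was 7.12 to 7.30 in control libraries 1 to 4, 8.49 in control library 5, and 6.89, 7.25, 7.58, 7.93 and 7.61 in periodontitis pups. Summed, the smooth muscle genes ranged from 1680 to 2238 CPM in control and from 1036 to 3503 CPM in periodontitis pups, and the fibroblast genes from 1411 to 3369 and from 1160 to 2496 CPM. All 6 genes of each list passed the filter on low counts, and edgeR called 0 of them. With the proximal and distal means as covariates, edgeR gave -1.57 for Sis, -0.96 for Mgam and -0.62 for Slc5a1 (adjusted p = 0.60, 0.6135 and 0.6135). In bulk RNA, fewer cells of a type and less RNA per cell cannot be told apart, and the part of segment, maturity or tissue markers in the 2-week values was not tested beyond this fit and the scaling to epithelial genes.

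Ratios between genes of 1 library do not depend on how libraries are scaled against each other. Per kilobase of exon, Lct over Sis was 2.25, 2.04, 2.62, 1.62 and 0.333 in control pups at 2 weeks and 4.93, 2.7, 45.0, 106 and 65.7 in periodontitis pups. Every periodontitis library had more Lct for each unit of Sis than every control library. Sis over Mgam was 0.852 to 1.12 in control pups and 0.549, 0.833, 0.163, 0.0579 and 0.135 in periodontitis pups, again without overlap, so relative to Mgam the Sis level was lower in each periodontitis library than in each control library. Both ratios hold Sis, which itself did not overlap, and the nearest values were close, at 2.7 against 2.62 and 0.833 against 0.852. At 7 weeks both ratios had closed ranges: Lct over Sis was 0.818 to 1.14 in control pups and 0.883 to 1.36 in periodontitis pups, and Sis over Mgam 1.54 to 1.99 and 1.40 to 2.52.

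**Figure D2:**
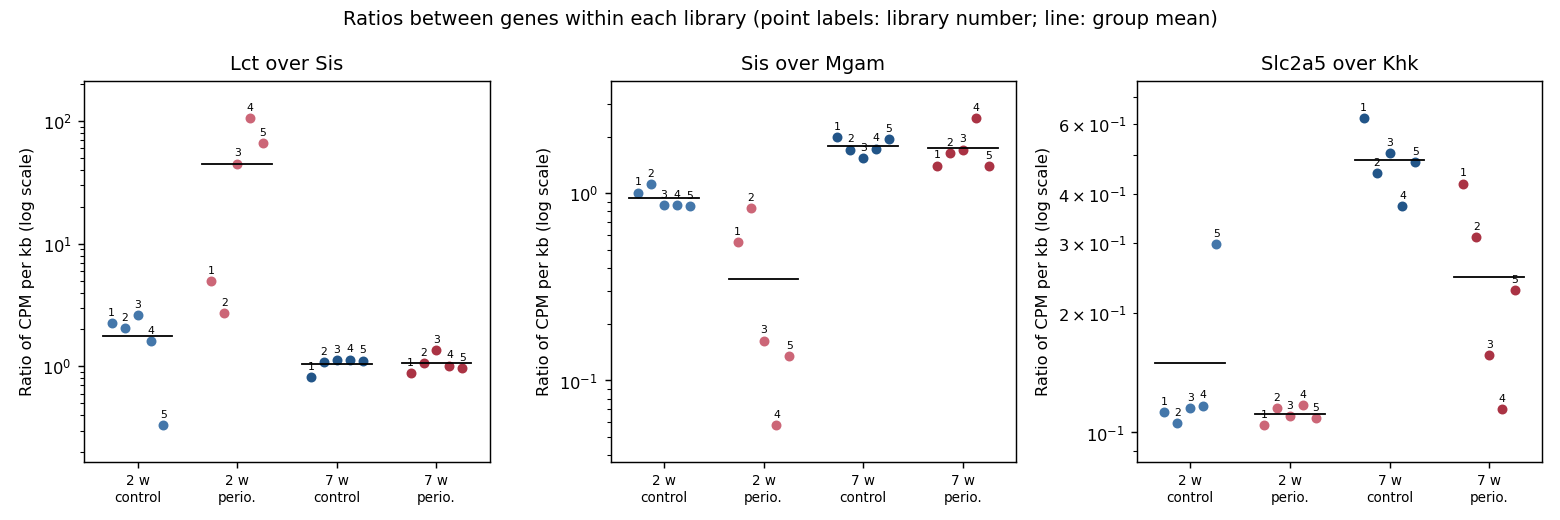
Each panel plots the ratio of CPM per kilobase of exon between 2 genes within each library, on a log scale, with points labelled by library number and a line at the group mean. Lct over Sis reaches 45.0 to 106 in periodontitis libraries 3 to 5 at 2 weeks and is 0.818 to 1.36 in all 7-week libraries; Slc2a5 over Khk is 0.105 to 0.117 in all 2-week libraries but control library 5, at 0.299.

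Among the 28 further genes of sugar transport and metabolism, 0 were called by edgeR at 2 weeks, and 10 had an unadjusted p under 0.05 (14.4% of all genes). DESeq2 called 4 (1 higher, with 3.6% of its genes called either way), and the median log2 fold change was 0.04. Slc5a4b, a relative of Slc5a1 of low abundance, stood at 9.84, 10.9, 12.7, 28.4 and 9.50 CPM in control pups and at 4.56, 7.88, 1.56, 0.665 and 0.537 CPM in periodontitis pups, with a log2 fold change of -2.23 ± 0.56 (edgeR adjusted p = 0.0772). Slc5a4a had -2.16 ± 0.61 (0.111), Slc5a11 -0.44 ± 0.27 (0.465) and Slc5a9 0.01 ± 0.16 (0.991). Slc5a4a and Slc5a4b are near copies, so counting may have split reads between them. Atp1b1, a subunit of the sodium pump that drives glucose uptake, had -1.0 ± 0.25 (0.0772). On the other side of 0 were the gluconeogenic genes Fbp1, at 1.13 ± 0.33 (0.118), and G6pc, at 0.85 ± 0.29 (0.190). Tkfc, which acts on fructose products after Khk, had -0.07 ± 0.32 (0.934). That estimate rests in part on control library 5, at 41.8 CPM, since control libraries 1 to 4 stood at 190 to 232 CPM. In periodontitis libraries 1 to 5 Tkfc stood at 212, 232, 159, 122 and 125 CPM, so libraries 3 to 5 lay under control libraries 1 to 4.

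Of 24 tested regulators of these genes, 0 were called by edgeR at 2 weeks, 7 had an unadjusted p under 0.05 (14.4% of all genes) and DESeq2 called 2 (1 higher, against 3.6% of its genes either way). Hnf4g, a nuclear receptor of differentiated enterocytes, had -1.19 ± 0.29 (edgeR adjusted p = 0.0714). Prdm1, the repressor that holds back adult genes in the suckling intestine, had 1.08 ± 0.31 (0.114). Estimates were small for 3 transcription factors of the enterocyte: Cdx2 0.18 ± 0.27, Hnf4a -0.06 ± 0.20 and Gata4 -0.14 ± 0.24. All 3 rest in part on control library 5, at 31.0, 263 and 27.0 CPM. Control libraries 1 to 4 stood at 139 to 168, 442 to 516 and 90.0 to 93.9 CPM. All periodontitis values of Gata4 (54.7 to 86.7 CPM) lay under those 4 libraries. For Hnf4a periodontitis libraries 3 to 5 did (416, 352 and 376 CPM), and for Cdx2 none did. Mlxipl, which encodes the sugar-responsive factor ChREBP, had -0.19 ± 0.22 and its target Txnip 0.14 ± 0.32.

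At 7 weeks the fructose transporter gene Slc2a5 was the 1 member whose groups did not overlap. It stood at 1228, 1260, 1135, 1063 and 1104 CPM in control pups and at 937, 852, 395, 272 and 369 CPM in periodontitis pups. The control libraries lay close together, and periodontitis libraries 3, 4 and 5 lay well under libraries 1 and 2. The means were 565 ± 306 against 1158 ± 83.4 CPM, 2.05-fold lower, with a log2 fold change of -1.04 ± 0.33 (95% interval -1.72 to -0.35, edgeR adjusted p = 0.957). Leaving out each library in turn kept it between -1.30 and -0.86, and edgeR called it in none of those fits. The mean of 15 epithelial genes was 9.11 to 9.31 in control pups and 9.44, 9.27, 9.14, 8.93 and 8.82 in periodontitis libraries 1 to 5, and Vil1 stood at 2610 to 3203 CPM against 3971, 3063, 2665, 1730 and 1994 CPM. Libraries 4 and 5 thus lay under the control range, and library 3 within it. Hnf4a stood at 667 to 813 CPM in control pups and at 818, 737, 481, 352 and 487 CPM in periodontitis pups, with the same 3 libraries low as for Slc2a5. The fibroblast mean was 4.27 to 4.96 in control pups and 4.30, 4.01, 4.66, 5.19 and 5.58 in periodontitis pups, and the smooth muscle mean 6.28 to 7.33 against 6.50, 6.05, 7.00, 7.63 and 7.55. Summed fibroblast genes ranged from 190 to 284 CPM in control and from 176 to 461 CPM in periodontitis pups, and smooth muscle genes from 508 to 1090 and from 441 to 1297 CPM. With libraries scaled to the epithelial genes the log2 fold change of Slc2a5 was -1.01 (edgeR adjusted p = 0.354). The mean of 6 adipocyte genes was -1.31 to -0.49 in control pups. In periodontitis libraries 1 to 5 it was 1.67, 1.54, 1.18, 2.30 and -1.92. Of the 5 adipocyte genes tested, edgeR called 0 and DESeq2 called 3, all higher (0.147% of its genes were called either way). For 8 immune genes the mean was 3.01 to 4.96 against 3.60, 2.79, 2.33, 3.40 and 3.05. Of these, 7 had estimates below 0, and both methods called 0. The part of the other markers in the Slc2a5 estimate was not tested.

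Khk, the next step for fructose, did not share this pattern. It stood at 1045, 1476, 1186, 1510 and 1215 CPM in control pups at 7 weeks and at 1168, 1449, 1332, 1255 and 851 CPM in periodontitis pups, with a log2 fold change of -0.09 ± 0.35. Slc2a5 over Khk, per kilobase, was accordingly 0.372 to 0.621 in control pups and 0.424, 0.311, 0.156, 0.114 and 0.229 in periodontitis pups. Against Slc5a1 the ranges were apart, at 0.579 to 0.707 in control pups and 0.144 to 0.358 in periodontitis pups.

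Tkfc, which encodes triokinase, a later step for fructose, stood at 1118, 1429, 1575, 1389 and 1311 CPM in control pups and at 973, 1069.95, 767, 579 and 1019 CPM in periodontitis pups, lower without overlap (-0.63 ± 0.32, edgeR adjusted p = 1.0). G6pc, which encodes glucose-6-phosphatase, ranged from 231 to 612 CPM and from 99.3 to 302 CPM (-1.04 ± 0.30, adjusted p = 0.736). Fbp1, another gluconeogenic gene, was estimated lower in periodontitis pups too, whereas Pck1, a further one, had 0.25 ± 0.31 (edgeR adjusted p = 1.0). For Slc2a5, Tkfc and G6pc alike, the lowest value of 7 weeks came from periodontitis library 4. That library was the shallowest of its age, with 21688016 counts, and had a mitochondrial share of 9.15%.

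**Figure D3:**
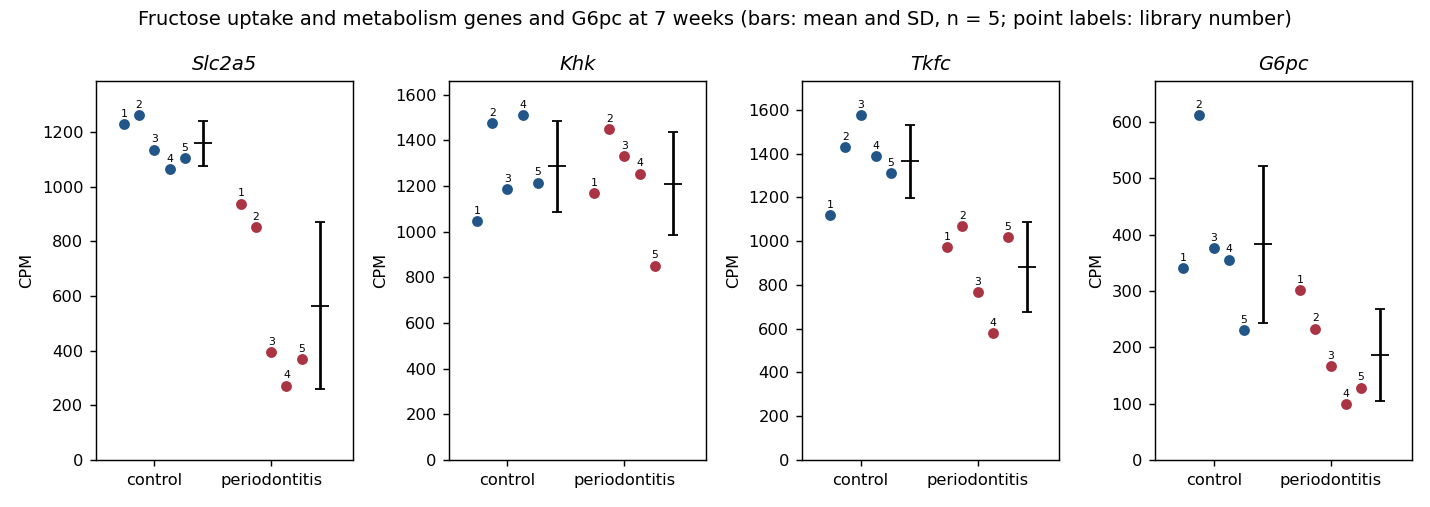
Each panel plots CPM at 7 weeks for 1 gene in 5 control and 5 periodontitis libraries, with points labelled by library number and bars at the mean and SD. Slc2a5 and Tkfc show no overlap between groups, while Khk overlaps, at 1045 to 1510 CPM in control and 851 to 1449 CPM in periodontitis pups.

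The other 6 members had similar means in pups of both kinds of dam at 7 weeks, with log2 fold changes from -0.14 (Slc2a2) to 0.25 (Slc5a1). Sis stood at 3399, 3531, 2707, 3302 and 3868 CPM in control pups and at 3498, 3368, 3446, 3272 and 2372 CPM in periodontitis pups, a log2 fold change of -0.08 with a 95% interval from -1.51 to 1.36. That interval is wide: the Sis estimate of 2 weeks lies outside it, but a 2-fold difference in either direction lies inside it. Mgam ranged from 1991 to 2414 CPM and from 1513 to 2911 CPM, Treh from 916 to 1217 and from 752 to 1416, and Lct from 2387 to 3705 and from 1979 to 4013. Slc5a1 ranged from 2096 to 2298 CPM in control pups and from 2066 to 3164 CPM in periodontitis pups (0.25 ± 0.21), and Slc2a2 from 681 to 868 and from 587 to 888.

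By edgeR 0 of 8 members were called at 7 weeks, where 0.0115% of all genes were, and DESeq2 called 0 of the 7 for which it gave an adjusted p (0.147% of its genes). Slc2a5, 1 of 8, had an unadjusted p under 0.05 (3.33% of all genes) and was lower without overlap (0.281% of all genes). The median log2 fold change was -0.07 over the members and 0.02 over all genes. Of the 28 further sugar genes, 0 were called by edgeR, 2 (G6pc and Fbp1) had an unadjusted p under 0.05 and DESeq2 called 0. The mean log2 CPM of the proximal genes was 9.43 to 9.65 in control pups at 7 weeks and 9.05, 9.08, 8.93, 8.99 and 9.47 in periodontitis pups. Library 5 of the periodontitis pups, with Slc2a5 at 369 CPM, lay within the control range of that list, and libraries 1 to 4 lay under it. With both segment means as covariates the Slc2a5 estimate was -0.64 (edgeR adjusted p = 0.897), and the part of segment in it was not tested further.

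The difference between the effects at both ages was fitted directly, as the effect at 7 weeks minus that at 2 weeks. No member passed: edgeR called 0 of 8 (0.0229% of all genes), while 3 of 8 had an unadjusted p under 0.05, against 8.8% of all genes. These were Slc5a1 at 1.27 ± 0.30 (edgeR adjusted p = 0.186), Mgam at 1.54 ± 0.54 (0.486) and Sis at 2.25 ± 0.98 (0.553). DESeq2 called 1, Slc5a1 (1.31, adjusted p = 0.00886; 0.243% of its genes were called higher). Without the 2 libraries numbered 5 that stand apart, edgeR called Slc5a1 too, with 0.526% of all genes called higher. The 7-week library was flagged by a member's own value, that of Sis, and the removal was chosen after seeing the data. That call is therefore a description and no separate support. For Slc2a5 the difference was -0.65 ± 0.46 (edgeR adjusted p = 0.680), so its lower level at 7 weeks was not shown to be particular to that age. Of the 28 further sugar genes edgeR called 0, and 6 had an unadjusted p under 0.05. DESeq2 called 2 of them, 0 higher, and 65 over all genes. The smallest p were those of G6pc (-1.89 ± 0.42, edgeR adjusted p = 0.186) and Fbp1 (-1.85 ± 0.47, 0.313). Both had estimates above 0 at 2 weeks and below 0 at 7 weeks.

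**Figure D4:**
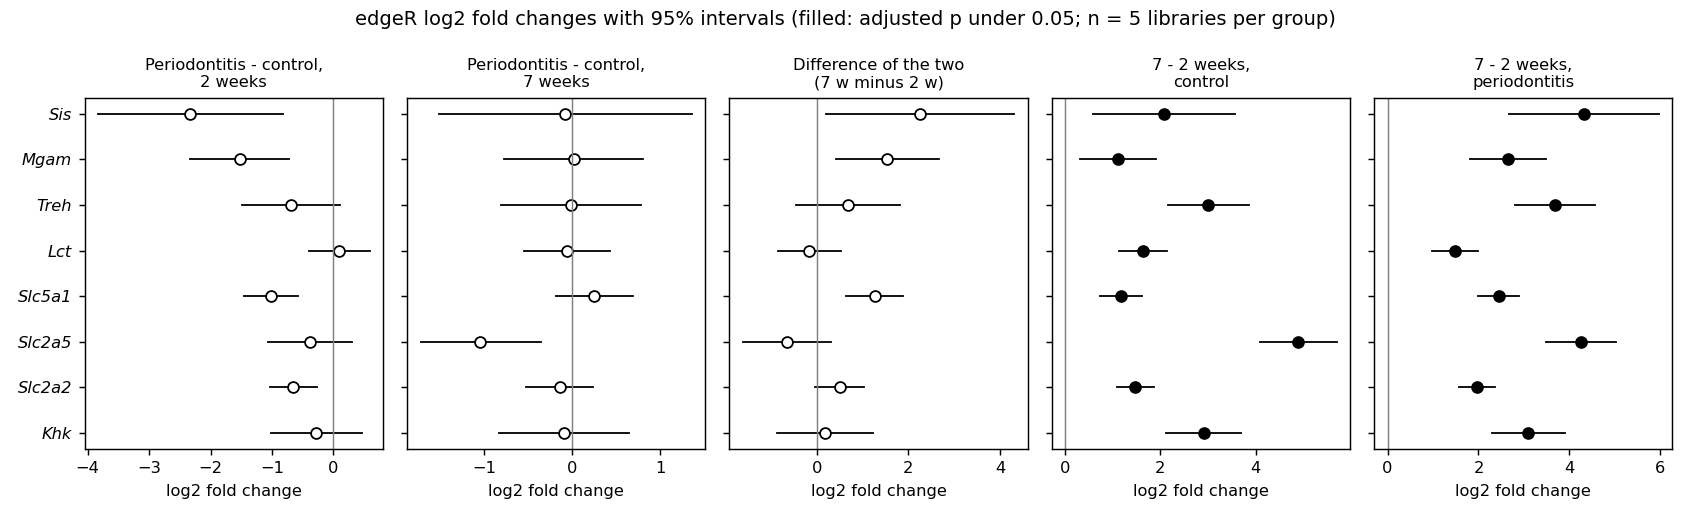
Each panel plots edgeR log2 fold changes with 95% intervals for the 8 genes in 1 comparison, on its own axis, with filled points where the adjusted p is under 0.05. All points are open in the 3 panels on the dam's condition and all are filled in both panels on age, where estimates run from 1.1 for Mgam in control pups to 4.90 for Slc2a5.

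With age all 8 genes rose, in pups of both kinds of dam. The rise was largest for the fructose transporter Slc2a5, from 38.6 ± 13.3 to 1158 ± 83.4 CPM in control pups, 29.9-fold or 4.90 ± 0.38 on the log2 scale (edgeR adjusted p = 1.17e-08). Treh rose 8.03-fold, from 135 to 1085 CPM (3.00 ± 0.41, adjusted p = 6.88e-06), and Khk 7.49-fold, from 172 to 1286 CPM (2.91 ± 0.38, adjusted p = 4.42e-06). The smallest rises in control pups were those of Slc2a2 at 2.77-fold (1.47 ± 0.19), Slc5a1 at 2.26-fold (1.17 ± 0.21) and Mgam at 2.15-fold (1.1 ± 0.38, adjusted p = 0.0169). Sis rose 4.21-fold (2.07 ± 0.72, adjusted p = 0.0167). Without control library 5 of 2 weeks, log2 rises were 4.71 for Slc2a5, 2.79 for Treh, 2.63 for Khk and 2.43 for Sis. Slc2a2 (1.53), Mgam (1.52), Lct (1.45) and Slc5a1 (1.26) followed, so Mgam was then not the smallest. Each had an edgeR adjusted p of at most 0.0105 in that fit.

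Lct, the enzyme of milk digestion, was higher and not lower in the older pups. It rose from 978 ± 314 to 3040 ± 535 CPM in control pups (1.64 ± 0.24, edgeR adjusted p = 1.50e-05) and from 1045 ± 132 to 2912 ± 738 CPM in periodontitis pups (1.48 ± 0.24, adjusted p = 2.80e-05). No 2-week library reached the lowest 7-week value, 1979 CPM. Of the 8, Lct had the smallest rise in periodontitis pups.

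In periodontitis pups the largest rise was that of Sis, from 159 to 3191 CPM or 20.1-fold (4.33 ± 0.79, edgeR adjusted p = 9.21e-05), close to that of Slc2a5 at 19.0-fold (4.25 ± 0.37). Treh rose by 3.69 ± 0.42, Khk by 3.09 ± 0.38, Mgam by 2.65 ± 0.40, Slc5a1 by 2.45 ± 0.22 and Slc2a2 by 1.97 ± 0.19 on the log2 scale. The age comparisons share their libraries with the dam comparisons above, so the larger Sis, Mgam and Slc5a1 rises here are the same values as their lower 2-week levels.

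In control pups 8 of 8 members were called higher, as were 27.1% of all genes, and 7 of 8 did not overlap (22.5% of all genes), Mgam being the exception through control library 5 at 2 weeks. In periodontitis pups 8 of 8 were called higher (30.4% of all genes) and all 8 did not overlap (24.9%). Median log2 fold changes were 1.86 and 2.87 over the members and -0.13 and -0.11 over all genes. When libraries were scaled to the epithelial genes, the median of all genes moved to -0.94 in control pups and -0.97 in periodontitis pups. All 8 estimates stayed above 0 in both, at a member median of 1.00 and 2.06. In control pups the calls of Sis (1.09, adjusted p = 0.164), Slc5a1 (0.31, 0.220) and Mgam (0.10, 0.841) were lost, with 8.64% of all genes called higher.

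The ages also differed in markers of segment, of other tissue and of sex. Fabp6 was at 2.92 to 510 CPM at 2 weeks and at most 0.724 CPM at 7 weeks, and the distal list's mean was 4.81 to 6.20 at 2 weeks and 1.28 to 2.55 at 7 weeks. The proximal list's mean was 5.98 to 8.05 at 2 weeks and 8.93 to 9.65 at 7 weeks, with 8 of its 10 genes called higher and 2 lower in each kind of pup. Summed pancreatic markers were 176 to 1858 CPM at 2 weeks and 11.3 to 36.2 CPM at 7 weeks. The Y-linked gene Ddx3y was at 29.2 to 152 CPM in all 10 libraries of 7 weeks, while Xist, from the inactive X chromosome, was at most 0.658 CPM there and reached 137 CPM at 2 weeks. With proximal and distal means as covariates edgeR called 3 of 8 members higher in control pups (Sis, Slc5a1 and Slc2a2, against 15.3% of all genes) and 4 of 8 in periodontitis pups (these and Mgam, against 18.2%). All 8 estimates stayed above 0 in both. Age and the part of the intestine sampled cannot be told apart in these groups. The part of sex was not tested, here or in the comparison of dams at 2 weeks.

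The further sugar genes rose with age as a group in control pups, with 18 of 28 called higher, 2 lower and a median log2 fold change of 1.12, where 27.1% and 34.4% of all genes were called. In periodontitis pups 17 were higher and 5 lower, with a median of 1.0, where 30.4% and 35.7% of all genes were called. In control pups the largest were Slc5a4b at 3.56 ± 0.58, Tkfc at 2.93 ± 0.34 and G6pc at 2.90 ± 0.31, all with an edgeR adjusted p of at most 3.92e-05. In periodontitis pups they were Slc5a4b at 6.06 ± 0.65, Slc5a4a at 5.25 ± 0.68 and Slc2a7 at 3.50 ± 0.52, with Tkfc at 2.38 ± 0.33 and G6pc at 1.01 ± 0.30 (adjusted p of at most 0.00536). Gpi1, a glycolytic isomerase gene, rose by 2.08 ± 0.18 in control pups. There Galm, which acts on galactose released from lactose, rose by 1.27 ± 0.14 and Pklr, a ChREBP target, by 2.02 ± 0.25. Their rises in periodontitis pups were 2.12 ± 0.18, 1.54 ± 0.14 and 1.54 ± 0.24. Galk1 (-0.43 ± 0.43) and Galt (0.05 ± 0.14), which act on galactose next, did not pass in control pups. For Galk1 that rests on control library 5, at 4.02 CPM, since libraries 1 to 4 of 2 weeks (60.7 to 104.8 CPM) lay above all control libraries of 7 weeks (47.2 to 59.8 CPM). In periodontitis pups Galt fell by 0.35 ± 0.14 (adjusted p = 0.0275), and Galk1 was at -0.96 ± 0.44 (0.059). Hk1 and Slc2a1, the hexokinase and glucose transporter of most cells, fell. Their log2 fold changes were -0.94 and -0.54 in control pups and -1.39 and -0.58 in periodontitis pups.

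Of the 24 regulators, 11 were called higher and 2 lower with age in control pups, and 12 and 3 in periodontitis pups, where 27.1% and 34.4%, and 30.4% and 35.7%, of all genes were called. Mlxipl rose by 1.02 ± 0.22 (edgeR adjusted p = 0.000621) and Gata4 by 1.23 ± 0.24 (0.000275) in control pups. Cdx2 (0.48 ± 0.27) and Txnip (0.31 ± 0.32) did not pass. Of the 13 suckling enterocyte genes 9 were called lower in each kind of pup, with 2 higher in control pups and 0 in periodontitis pups, beside the same shares of all genes. Among them, Glb1, the lysosomal enzyme that also splits lactose, fell by 2.36 in control pups and by 3.23 in periodontitis pups.

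Levels can be compared between genes only per length, here as CPM per kilobase of merged exons. In control pups at 2 weeks the order was Slc5a1 (238 ± 36.6), Lct (153 ± 49.0), Mgam (118 ± 68.5), Sis (107 ± 53.7), Khk (95.5 ± 45.1), Treh (66.0 ± 26.5), Slc2a2 (49.6 ± 5.25) and Slc2a5 (11.4 ± 3.92). Neighbours in this order overlapped except Slc5a1 with Lct and Slc2a2 with Slc2a5. Over libraries 1 to 4 alone, Slc5a1 (225) and Lct (174) still led, but Khk followed next (115 ± 7.51, n = 4), above Mgam (88.0 ± 20.5), Sis (83.4 ± 12.8) and Treh (76.6 ± 13.4). Khk, Mgam, Sis and Treh overlapped as neighbours. In periodontitis pups at 2 weeks Lct came first (163 ± 20.7) and Sis seventh of 8 (21.3 ± 27.2), and all neighbours overlapped. At 7 weeks Khk (716 ± 111 in control pups) came first, before Slc5a1 (538 ± 21.0) and Treh (530 ± 60.6), which overlapped with each other. Slc2a5, last at 2 weeks, was sixth in control pups at 7 weeks (340 ± 24.5), without overlap with Mgam below it, and seventh in periodontitis pups (166 ± 89.9), where it overlapped with Slc2a2 (124 ± 22.3).

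The genes most like a member were ranked by Pearson's r of log2 CPM among 11713 genes, as a description with no test, since libraries of a group and of an age move together. Over the 10 libraries of 2 weeks, Sis was most like Slc9a2, an epithelial sodium-proton exchanger (r = 0.994), Cyp4f14 (0.994), Fmo4 (0.992), Ugt2a3 (0.992) and Adh4 (0.991). Among the other members it was closest to Slc5a1 (0.985), Slc2a2 (0.972) and Mgam (0.955), with lower values for Treh (0.716), Slc2a5 (0.465), Khk (0.102) and Lct (-0.173). These low values rest on control library 5. Over the other 9 libraries r was 0.968 to 0.984 for Slc5a1, Khk, Mgam, Slc2a5, Treh and Slc2a2, and 0.613 for Lct, while Mfsd4b2 (0.997) and Cyp4v3 (0.997) came first and Slc9a2 eighth (0.994). Over all 20 libraries, where age sets most of the spread, Lct was most like Tmbim6 (0.988) and, among members, Khk (0.978). Slc2a5 was most like D5Ertd579e (0.992) and Crat (0.987), and the glycolytic gene Gpi1 was also among the 5 most like it (0.984), and Treh was most like Cda (0.997) and Dhrs11 (0.994).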

How the data were processed

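The deposited values are expected counts per gene, all whole numbers, so rounding changed 0 values. Per the submitters' processing notes, the authors' tools were cutadapt 4.8 for trimming, FastQC 0.11.8, STAR 2.7.8a for alignment and RSEM 1.3.3 for counting, and the genome builds named are GRCh38 and GRCm38. The annotation and strandedness are not given in the sources used here. Of 55491 lines in the table, 4 carry IDs of no mouse gene, with 0 counts in all. GENCODE M21 on GRCm38 matched 55227 gene IDs and gave coordinates and exon lengths.

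Counts were fitted in R 4.3.3 with edgeR 4.0.16. The filterByExpr filter by group left 17464 genes, and TMM scaled the libraries. A robust quasi-likelihood fit of all 20 libraries had 1 mean for each group, 16 residual degrees of freedom and a common dispersion of 0.0989. Benjamini-Hochberg adjustment ran over the 17464 genes, and the threshold was 0.05. The SE is the absolute log2 fold change over the square root of the F statistic, and 95% intervals use the t distribution of the fit. CPM are TMM-scaled, and log2 CPM use a prior count of 2. A library's CPM range is called without overlap when all values of 1 group lie beyond all of the other. On simulated counts of 17464 genes, changes of 2 times at 2 weeks were recovered in 62.7% of cases, those of 4 times in 95.5%, and those of 1.5 times in 7.46%, with 6 false calls. These counts were drawn independently for each gene and library. Shifts shared by many genes of a library, as at 2 weeks, were not simulated, so the rates may not hold for these data.

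The members and the 14 lists of 158 genes were chosen with earlier results of these data known. Beside the members, a fixed set of sugar genes and regulators was given (some are not reported here), with up to 6 genes per list and comparison that passed the threshold by smallest p. Ctsl, Fcgrt, Fbp1, Pck1, Slc5a9, Slc5a11, Atp1b1, Hnf4g, Hk1, Slc2a1, Vil1, Fgf15, Bex4 and Apoa4 were chosen after their values were seen. So were the library values shown and Ddx3y and Xist. Genes of like pattern needed a mean log2 CPM of at least 1. Libraries with the same number in different groups did not deviate together, so no pairing was used. Other scalings tried were the size factors of DESeq2 and the epithelial genes. Other fits were DESeq2 1.42.0, only the compared groups, a non-robust fit, a block for the replicate number, and segment means as covariates. Low counts were also left unfiltered, or filtered at CPM over 1 in at least 5 libraries. The longest transcript served as another length, and each library was left out in turn. Removing library 5 of the control pups at 2 weeks and library 5 of the periodontitis pups at 7 weeks together, removing mitochondrially encoded genes, and giving 2-week levels and likeness without control library 5, were added after seeing the data.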

Additional observations from a re-analysis of the deposited data

Results flagged for a closer look

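Among the 32 groups of 5 libraries formed by the 8 genes, 5 had 1 library far from the other 4, by a gap over the range larger than 0.71. Chance gives such a gap in about 1 in 20 groups. Control library 5 at 2 weeks accounts for 4 of the 5: it was highest for Sis (1500.4 CPM) and Mgam (2053 CPM), and lowest for Lct (429 CPM) and Khk (28.0 CPM). It is also the shallowest library, with 29.4% of its counts from mitochondrially encoded genes. The other is library 5 of the periodontitis pups at 7 weeks, lowest for Sis at 2372 CPM. The part of depth or RNA quality in these values was not tested.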

How the results depend on the processing

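Of the members' fold changes under the alternatives, 1166 kept direction and call, 35 turned direction, 14 gained a call and 12 lost one; DESeq2 gave Sis no adjusted p. The cause of these shifts was not tested. Changes of 1.5 times were mostly missed in simulation at this n. Members called at 2 weeks numbered 0 by edgeR, 2 with epithelial scaling, 3 by DESeq2, 1 without both libraries numbered 5 that stand apart and 0 to 4 when 1 library was left out. For the difference between ages, DESeq2 and the fit without both libraries each called 1. By age in control pups, 5 were called with epithelial scaling and 3 with segment covariates, and in periodontitis pups 4 with segment covariates. Over all genes at 2 weeks edgeR called 5 (60% higher). It called 0 when scaled by the size factors of DESeq2 (2628 had an unadjusted p under 0.05), with segment covariates (1343) and with the compared groups alone (2159). It called 17 without robust estimation (82.4% higher), 496 with epithelial scaling (88.3% higher), 361 without both libraries and 0 to 387 when 1 library was left out, and DESeq2 called 599 (41.4% higher); 71.4% of calls were higher with no filter. At 7 weeks edgeR called 2 genes, 0 with epithelial scaling (498 unadjusted) and with the compared groups alone (383), 32 without both libraries and 0 to 15 when 1 library was left out, and DESeq2 called 25 (48% higher against 100%). For the difference the counts were 4, 1 with epithelial scaling, 159 without both libraries and 1 to 26 when 1 library was left out, and DESeq2 called 65 (64.6% higher against 100%). With segment covariates, age called 6108 genes in place of 10739 in control pups and 6899 in place of 11542 in periodontitis pups. When 1 library was left out these counts were 10013 to 12408 and 10794 to 13378. Epithelial scaling took the share of higher calls by age from 44.1% to 12.8% in control pups and from 46% to 13.8% in periodontitis pups. Estimates near 0 turned sign. With epithelial scaling, at 7 weeks, Sis was 0.0256, Treh 0.0847, Lct 0.0481 and Khk 0.0161, and at 2 weeks Khk was 0.0022. With segment covariates, at 7 weeks Sis was 0.4997, Treh 0.4523 and Khk 0.2594, at 2 weeks Treh was 0.1582, Slc2a5 0.0856 and Khk 0.2646, and the Khk difference was -0.0052. Without both libraries, at 7 weeks Sis was 0.0191, Treh 0.0965, Lct 0.0539 and Khk 0.0196, Lct at 2 weeks was -0.0954 and its difference 0.1493. Leaving out 1 library gave, at 7 weeks, -0.1452 to 0.0187 for Sis, -0.0967 to 0.1306 for Mgam, -0.1323 to 0.096 for Treh, -0.2063 to 0.0535 for Lct and -0.1607 to 0.0191 for Khk, and for Lct -0.0939 to 0.1895 at 2 weeks and -0.3022 to 0.0302 for its difference. With the longest transcript as length, 7-week levels per kilobase were 565 and 536 for Sis and 339 and 344 for Mgam in control and periodontitis pups, and 367 for Slc2a5 in control pups. The replicate numbers do not pair the libraries: deviations of same-numbered libraries correlated at -0.40 to 0.29. With the number as a block, edgeR called 0 genes at 2 weeks (2015 unadjusted), 0 at 7 weeks (500 unadjusted) and 0 for the difference (1139 unadjusted), all 8 members stayed called by age, and Mgam at 7 weeks was -0.0051.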
